A study of Mus musculus with 6 samples.

Results

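Nanog and its neighbors Dppa3, Gdf3, Slc2a3 and Apobec1 lie together on mouse chromosome 6, and the acetylation of histone H3 at lysine 27 (H3K27ac) across this neighborhood was analyzed in O4AID ESCs before and after loss of OCT4. All H3K27ac peaks overlapping a window of 210 kb (GRCm38), from -157 kb to 52.5 kb of the first Nanog transcription start, were taken, 14 of the 31131 peaks in the series. Each was assigned to the gene with the nearest annotated transcription start, which gave 7 peaks to Nanog, 3 to Apobec1, 2 to Gdf3 and 1 each to Dppa3 and Slc2a3. ChIP-seq with an H3K27ac antibody was carried out on 3 IPs from uninduced cells and 3 IPs from cells kept for 1.5 h in 500 μM IAA (indole-3-acetic acid, an auxin). Both groups were mouse ESCs of strain 129SV that lack their own OCT4 (Oct4-/-) and carry a TetOFF Oct4 transgene, held silent with doxycycline throughout. Their remaining OCT4 came from CAG Oct4AID, a fusion with an auxin-inducible degron. CAG Tir1 supplied the plant protein that marks the fusion for degradation once IAA is present. Both transgenes were driven by the constitutive CAG promoter rather than by Oct4's own control regions, the cells were of a single line, and both groups grew in N2B27 with PD03, Chiron and LIF. The files hold no measure of OCT4 protein, so its depletion was not checked here, and no label says whether the IPs came from separate cultures, so the p-values cover only the spread between these IPs.

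H3K27ac is deposited on nucleosomes at active promoters and enhancers, and in ESCs it is dense around genes of the pluripotency network. OCT4 binds DNA through a POU domain, often beside SOX2 at a joined SOX-OCT element, and NANOG is a homeodomain factor that works with both. The Nanog neighborhood is a textbook case of clustered ESC enhancers: described enhancers lie just upstream of Nanog, further upstream between Dppa3 and Nanog, and inside Slc2a3, and the Nanog promoter carries a well-known SOX-OCT element. Among the other genes, Dppa3 (Stella) encodes a maternal factor that protects DNA methylation in the zygote, Gdf3 a ligand of the TGF-beta superfamily, Slc2a3 the glucose transporter GLUT3, and Apobec1 a cytidine deaminase that edits Apolipoprotein B mRNA.

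Sequences in or near these peaks with a motif that OCT4 could read are shown first, together with a peak that holds none. The mark of an OCT4 site within 1 kb, which divides the peaks below, comes from published ChIP-seq and not from these motifs. Both strands were searched for the octamer core ATGCAAA and for the joined SOX-OCT element, TTGT followed by 1 base and ATGCAAA, so that each joined element also counts as an octamer core. The first line gives the 250 bases before the Nanog start (RefSeq, GRCm38.p6, chr6:122707239-122707488, plus strand), with the SOX-OCT element in capitals as it reads on the opposite strand. The next 3 lines show 127 bases around the octamer core, in capitals, inside the peak upstream of Nanog (GRCm38, chr6:122702122-122702248, plus strand), inside the peak over the Gdf3 promoter (chr6:122609085-122609211, minus strand, Gdf3 intron) and inside the peak in an Apobec1 intron (chr6:122591528-122591654, plus strand). The last line gives the central 200 bases of the peak with the largest fall of the window (chr6:122606907-122607106, plus strand, coding sequence of the last Gdf3 exon). That peak holds neither motif and so has no capitals.
Nanog upstream sequence: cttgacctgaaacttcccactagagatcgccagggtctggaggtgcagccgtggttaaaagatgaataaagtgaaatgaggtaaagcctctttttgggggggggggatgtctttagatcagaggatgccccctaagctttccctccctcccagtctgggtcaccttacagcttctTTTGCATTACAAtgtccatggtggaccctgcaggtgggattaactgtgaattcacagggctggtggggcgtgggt
Nanog upstream peak: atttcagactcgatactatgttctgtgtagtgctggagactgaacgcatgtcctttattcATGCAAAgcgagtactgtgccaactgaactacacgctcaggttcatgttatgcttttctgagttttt
Gdf3 promoter peak: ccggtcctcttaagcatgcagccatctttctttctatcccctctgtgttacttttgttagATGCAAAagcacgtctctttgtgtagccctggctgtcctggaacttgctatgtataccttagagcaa
Apobec1 intron peak: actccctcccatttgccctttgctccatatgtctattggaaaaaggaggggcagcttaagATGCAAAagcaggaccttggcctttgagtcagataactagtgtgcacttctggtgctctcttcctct
Gdf3 exon peak: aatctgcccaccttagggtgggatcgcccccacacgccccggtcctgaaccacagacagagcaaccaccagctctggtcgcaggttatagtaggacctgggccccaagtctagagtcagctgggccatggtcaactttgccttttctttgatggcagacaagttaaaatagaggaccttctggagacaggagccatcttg

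The octamer core lay inside 4 of the 14 peaks (28.6%), against 11.1% of all 26457 tested peaks and 16.8% of the tested peaks with the OCT4 mark. These 4 were the intron and promoter peaks of Apobec1, the promoter peak of Gdf3 and the peak upstream of Nanog. With 1 kb added on each side, 7 of the 14 (50%) held it, against 40.5% of all tested peaks. Motif and OCT4 mark did not always go together. The marked peaks at -44.47 and 8.46 kb from the Nanog start held no octamer core even with the added 1 kb. The Apobec1 promoter peak held the octamer core without the mark. The joined SOX-OCT element was in 0 of the 14 peaks and in 0.0869% of all tested peaks. With the added 1 kb it was found beside 1 of the 14, against 0.340% of all tested peaks. That element is the Nanog one at chr6:122707414-122707425, bases -75 to -64 from the start and 288 bases outside the nearest H3K27ac peak, which covers the beginning of the gene. Among the 32851 RefSeq promoters, 12 (0.0365%) held the joined element, and 1520 (4.63%) held the octamer core. The Apobec1 promoter was among the latter, with its octamer at bases 2 to 8 after the start. These matches are a description of the C57BL/6J reference sequence, whereas the cells were of strain 129SV.

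Values were deposited in RPKM, which scales the reads of a peak to its length and to the size of the library. The libraries held 31634480 to 39547452 reads, of which 6.63% to 7.12% lay in peaks in the uninduced group and 4.05% to 5.15% in the IAA group. At each window peak a library had between 8 and 732 reads. Of the fixed marker genes, 6 of 6 of the ESC list had a tested peak within 10 kb, against 2 of 6 of the trophoblast list (Hand1 and Gata3), 1 of 5 of the primitive endoderm list (Gata6) and 2 of 5 of the fibroblast list (Col1a1 and Vim). In a bulk ChIP, fewer cells with the mark and less mark per cell cannot be told apart. RPKM divides by all reads, neither an input nor a spike-in was used here, and the median tested peak itself fell by 0.55 on the log2 scale after IAA. Changes are therefore given both as deposited and relative to this median peak. The part of the smaller share of reads in peaks in each fall was not tested.

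All 14 peaks of the neighborhood had a lower mean after IAA, and 12 of the 14 fell past the threshold (limma on log2(RPKM + 0.1), Benjamini-Hochberg adjusted p under 0.05 over all tested peaks), where 68.2% of all tested peaks fell. No peak of the window rose (0 of 14, also 0 at an unadjusted p under 0.05), where 0.0605% of all tested peaks did. Peaks were called on the uninduced IPs alone, so a region acetylated only after IAA could not appear among them. That choice also favors falls over rises, in the window and over all tested peaks, and its part in these counts was not tested. The same 12 peaks had all 3 IAA values below all 3 uninduced values, which was the case for 71.2% of all tested peaks. The 2 peaks that were not called both belong to Apobec1. The median change of the 14 peaks was -0.69 on the log2 scale, beside -0.55 over all tested peaks. With each library centered on its median tested peak, 1 of the 14 peaks was called lower, where 1.97% of all tested peaks were, and 12 of the 14 changes were below 0.

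**Figure D1:**
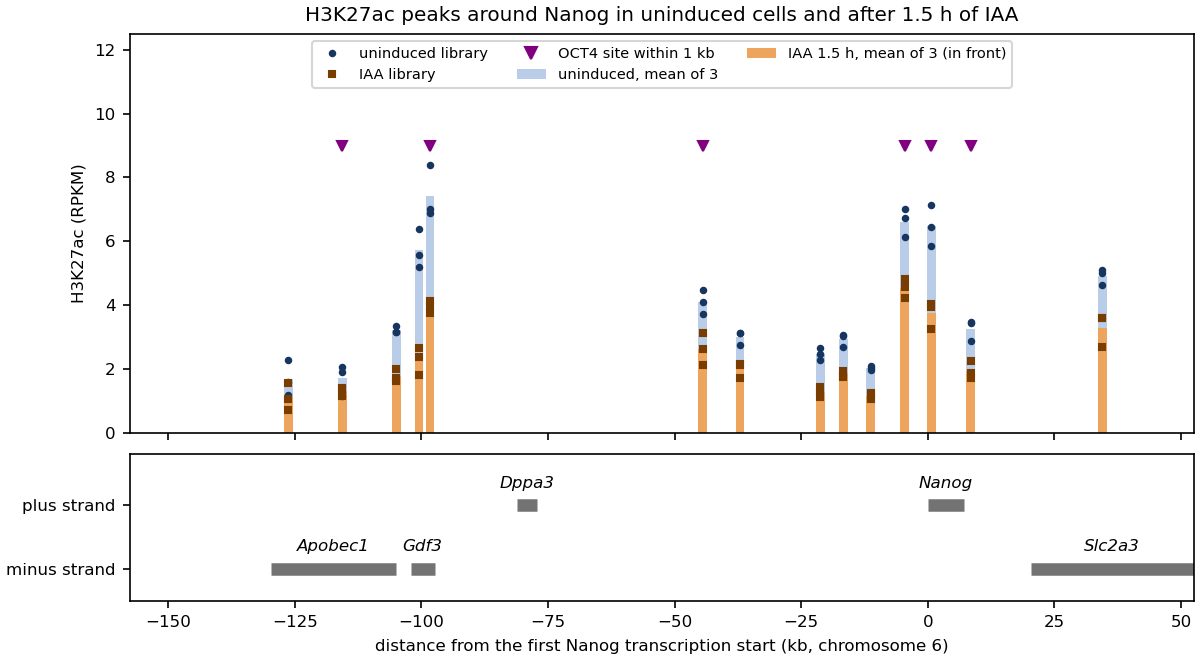
H3K27ac in RPKM at the 14 peaks of the window (bars, mean of 3 libraries, with the IAA bar in front of the uninduced bar; points, single libraries) against distance from the first Nanog start in kb, with the gene bodies of the 5 members below and triangles at the 6 peaks marked by an OCT4 site within 1 kb. The Gdf3 promoter peak and the peak upstream of Nanog are the highest in uninduced cells, and no peak lies over Dppa3.

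At Nanog, H3K27ac fell at all 7 peaks, from the farthest at -37.07 kb to the one at 8.46 kb past the start. Of all tested peaks, 68.2% fell, and with centering on the median peak 0 of the 7 were called lower. Positions are those of the peak midpoint from the first annotated Nanog start, negative on the side of Apobec1. The peak at -4.58 kb (chr6:122701593-122704235, intergenic, OCT4 mark), which contains the second sequence above and lies where the enhancer just upstream of Nanog is described, was the longest of the window at 2642 bases. It stood at 7.01, 6.14 and 6.72 RPKM in the uninduced libraries and at 4.56, 4.84 and 4.23 RPKM after IAA. The groups did not overlap, and their means of 6.62 ± 0.442 and 4.54 ± 0.305 RPKM (SD, n = 3) left 68.6% of the signal. Its log2 change was -0.53 (SE 0.147, limma adjusted p = 0.00647) and lay 0.02 above that of the median peak, with a 95% interval from -0.19 to 0.23. This enhancer peak thus ranked among the highest of the series in level (percentile 97.3 of the uninduced RPKM) and near the middle in its change (percentile 52.9, counted from the largest fall). Among the tested peaks with the OCT4 mark its change was at percentile 76.5, toward the smaller falls.

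The peak over the beginning of Nanog (chr6:122707713-122708625, OCT4 mark) covers UTR and coding exon sequence and lies just downstream of the printed SOX-OCT element. Its uninduced libraries gave 6.46, 5.86 and 7.14 RPKM and its IAA libraries 4.05, 3.95 and 3.26 RPKM. All IAA values were below all uninduced values, and IAA replicate 3 was the lowest. The mean fell from 6.48 ± 0.64 to 3.75 ± 0.431 RPKM (SD, n = 3), a log2 change of -0.77 (SE 0.155, limma adjusted p = 0.001). Relative to the median peak the change was -0.22 (95% interval -0.45 to 0.00, limma adjusted p = 0.363).

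Downstream of Nanog, the intergenic peak at 8.46 kb (chr6:122715406-122716488, OCT4 mark) had 3.48, 3.45 and 2.86 RPKM in uninduced cells and 1.87, 2.25 and 1.71 RPKM after IAA. The groups were again separate, and the log2 change was -0.72 (SE 0.174, limma adjusted p = 0.00325). The other 4 Nanog peaks, at -37.07, -21.22, -16.67 and -11.3 kb, carry no OCT4 mark and are lower, with uninduced means from 2.03 to 3.01 RPKM and IAA means from 1.17 to 2.0 RPKM. Each of the 4 fell without overlap between the groups, with log2 changes from -0.57 to -0.90. All 3 IAA values were below all 3 uninduced values at 71.2% of all tested peaks. The largest of these falls was at -21.22 kb (chr6:122685889-122686648), where uninduced values of 2.3, 2.46 and 2.65 RPKM stood against IAA values of 1.43, 1.28 and 1.14 RPKM. The peak at -11.3 kb overlaps an exon of the pseudogene Gm10420. Of its 32-base words, 61.3% occur again in the genome, against 0% to 7.81% for the other 13 peaks, so its reads may be shared with other copies.

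**Figure D2:**
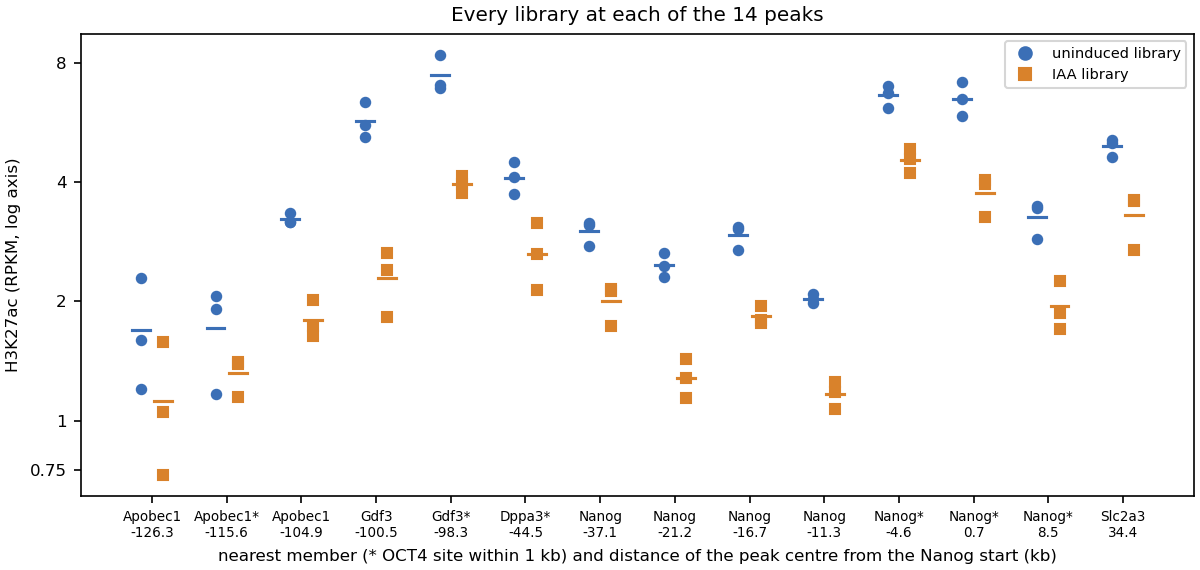
RPKM of every library (log axis) at each of the 14 peaks, ordered along the chromosome and labeled by nearest member and distance from the Nanog start, with an asterisk for the OCT4 mark and short lines for the means of 3 libraries. The 3 uninduced libraries lie above the 3 IAA libraries at 12 of the 14 peaks, and the groups overlap at the Apobec1 peaks at -126.26 and -115.62 kb.

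Gdf3 had the highest H3K27ac of the 5 genes in uninduced cells and the steepest fall. Its promoter peak (chr6:122608152-122610126, OCT4 mark), which contains the third sequence above, was the highest of the window. It gave 8.38, 6.90 and 7.03 RPKM in the uninduced libraries and 4.14, 3.75 and 3.95 RPKM after IAA. The 3 IAA libraries were close to each other and all below the uninduced ones, with a log2 change of -0.89 (SE 0.149, limma adjusted p = 0.000265). Relative to the median peak this was -0.34, with a 95% interval from -0.57 to -0.11 and a limma adjusted p of 0.131.

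The second Gdf3 peak (chr6:122606509-122607505, at -100.48 kb) lies over the last coding exon and the adjoining intron, has no OCT4 mark, and is the source of the fifth sequence above. Its uninduced libraries stood at 6.37, 5.59 and 5.19 RPKM and its IAA libraries at 2.65, 2.39 and 1.82 RPKM. Even the lowest uninduced library was well above the highest IAA library, and the mean went from 5.71 ± 0.603 to 2.29 ± 0.422 RPKM (SD, n = 3), 40.1% of the uninduced level. The log2 change was -1.29 (SE 0.169, limma adjusted p = 3.99e-05), at percentile 1.19 of all tested peaks and 0.486 of those without the mark. It was the only window peak still called after centering on the median peak (-0.74, 95% interval -0.98 to -0.50, limma adjusted p = 0.00434). The Gdf3 promoter peak with the OCT4 mark and the Gdf3 exon peak without it are less than 1 kb apart.

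The Dppa3 gene itself had no H3K27ac peak: no peak edge lay within 16.3 kb of either annotated Dppa3 start. The nearest was the Gdf3 promoter peak. The single peak whose nearest start is that of Dppa3, at -44.47 kb from Nanog (chr6:122661946-122664091, intergenic, OCT4 mark), lies between Dppa3 and Nanog where a distal enhancer is described, and its assignment to Dppa3 is by distance alone. Its values were 4.48, 3.73 and 4.11 RPKM in the uninduced libraries and 3.14, 2.64 and 2.14 RPKM after IAA. The groups did not overlap, although the IAA libraries were spread more widely. The log2 change was -0.63 (SE 0.17, limma adjusted p = 0.00595), which differed from that of the median peak by -0.08 (95% interval -0.33 to 0.17).

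At Slc2a3, the only peak inside the window (chr6:122741335-122742524, no OCT4 mark) covers annotated transcription starts of the gene, with coding and UTR exons. It gave 5.10, 4.63 and 5.02 RPKM in uninduced cells and 3.60, 3.59 and 2.69 RPKM after IAA. IAA replicate 3 was the lowest, and all IAA values were below all uninduced ones. The log2 change of -0.57 (SE 0.16, limma adjusted p = 0.00707) was within 0.02 of that of the median peak (95% interval of the difference -0.24 to 0.20). Slc2a3 runs on beyond the window, where 3 further peaks in its introns, at 56.57, 62.59 and 63.41 kb from Nanog, carry the OCT4 mark in the stretch where the enhancer inside this gene is described. All 3 fell, by 0.69, 0.48 and 0.60 on the log2 scale, where 85.2% of all tested peaks with the mark fell. The first and longest of them (chr6:122762941-122765177) had 5.68, 5.02 and 5.41 RPKM in uninduced and 3.89, 3.37 and 2.71 RPKM in IAA libraries. The Slc2a3 peaks farther out carry no OCT4 mark. The intron peak at 83.12 kb hardly changed (log2 change -0.02, limma adjusted p = 0.943). Beside the farthest Slc2a3 start, the peak at 93.79 kb was called with overlapping groups (-0.58, limma adjusted p = 0.0355). The one at 94.51 kb was not called (-0.43, limma adjusted p = 0.0852).

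Over the peaks assigned to each gene, Apobec1 had the lowest mean H3K27ac of the 5 genes and the only window peaks that did not pass the test. Its promoter peak (chr6:122602144-122602960, no OCT4 mark) fell from 3.35, 3.18 and 3.17 RPKM to 2.01, 1.63 and 1.73 RPKM, a log2 change of -0.82 (SE 0.169, limma adjusted p = 0.00122). The uninduced libraries there were nearly level and far from the IAA libraries. The intron peak with the OCT4 mark (chr6:122591533-122592209), source of the fourth sequence above, had 2.06, 1.17 and 1.91 RPKM against 1.39, 1.15 and 1.41 RPKM after IAA. Its groups overlapped because uninduced replicate 2 lay among the IAA libraries, and its log2 change of -0.32 (95% interval -0.80 to 0.15, limma adjusted p = 0.193) was the smallest of the window. The coding exon peak at -126.26 kb (chr6:122581066-122581382) had 1.20, 1.6 and 2.29 RPKM against 1.58, 1.05 and 0.73 RPKM, with a log2 change of -0.57 (95% interval -1.13 to -0.01, limma adjusted p = 0.0623). This was the shortest peak, 316 bases, and its lowest library had 8 reads, a counting error of 35.4% of the value. The adjusted p passed the threshold without uninduced replicate 1 (0.0372) or without IAA replicate 1 (0.0141), which shows that single libraries decide this call.

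Taking the length-weighted mean RPKM over the peaks of each gene, Gdf3 was highest in uninduced cells (6.86 ± 0.734 RPKM, SD, n = 3), followed by Slc2a3 (4.92 ± 0.255), Nanog (4.67 ± 0.184), Dppa3 (4.10 ± 0.376) and Apobec1 (2.39 ± 0.213). Slc2a3 and Nanog, as neighbors in this order, differed by about their spread. The Slc2a3 value is that of its only peak inside the window. Peaks of this gene beyond the window edge, with uninduced means from 0.672 to 5.37 RPKM, are not in it. The place of Slc2a3 in the order therefore holds for the window only. The Dppa3 value is that of the intergenic peak assigned to it by distance, 36.27 kb from its start, since no peak lies over Dppa3. After IAA the means were 3.39 ± 0.220 RPKM at Gdf3, 3.29 ± 0.520 at Slc2a3, 2.99 ± 0.241 at Nanog, 2.64 ± 0.502 at Dppa3 and 1.50 ± 0.184 at Apobec1, so that the order was kept, and Gdf3, Slc2a3, Nanog and Dppa3 each lay within the spread of their neighbors among these 4. The share of the uninduced level that was left was 49.4% at Gdf3 and between 62.5% and 67.0% at the other 4 genes. Over all 14 peaks the mean fell by 0.74 on the log2 scale, from 4.77 ± 0.295 to 2.86 ± 0.249 RPKM. In each gene the 3 IAA libraries lay under the 3 uninduced ones. The exact permutation test, two-sided, gave p = 0.1 for each, also when adjusted over the 5 genes, and no smaller p can be had from 3 libraries a group.

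To compare genes free of any factor common to a library, the difference of 2 genes' log2 mean RPKM was taken within each library, for all 10 pairs. Gdf3 exceeded Nanog by 0.68, 0.53 and 0.43 in the uninduced libraries and by 0.26, 0.05 and 0.25 after IAA. These values did not overlap, and the mean gap fell by 0.37 on the log2 scale. Gdf3 exceeded the peak assigned to Dppa3 by 0.78, 0.79 and 0.64 in uninduced libraries and by 0.21, 0.32 and 0.60 after IAA, a change of -0.36. Its lead over Slc2a3 changed by -0.42, and that over Apobec1 shrank as well, since the difference Apobec1 minus Gdf3 rose by 0.33. In each of these 4 pairs with Gdf3 the groups were separate, at the smallest possible p (exact two-sided permutation test, p = 0.1, Benjamini-Hochberg adjusted over the 10 pairs 0.25), so none passes a threshold of 0.05. The 6 pairs without Gdf3 had changes between -0.09 and -0.00334, with overlapping libraries (exact permutation p = 0.4 to 1, adjusted 0.8 to 1). With unweighted means, 4 of these 6 turned positive, from 0.00158 for Apobec1 minus Slc2a3 to 0.13 for Apobec1 minus Nanog, so no direction is read from them. Nanog and Slc2a3, for example, differed by -0.09, -0.05 and -0.08 in uninduced libraries and by -0.24, -0.17 and 0.01 after IAA.

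**Figure D3:**
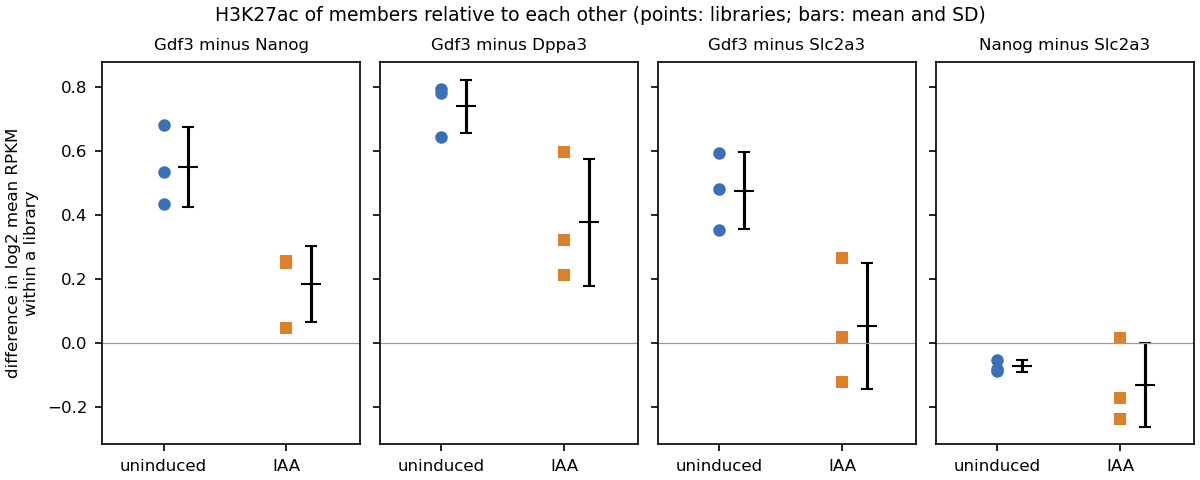
Difference between the log2 length-weighted mean RPKM of 2 genes within each library (points) with mean and SD of 3 libraries (bars), in uninduced and IAA groups. The 3 panels with Gdf3 show IAA libraries below all uninduced libraries, with mean changes from -0.36 to -0.42, and the panel of Nanog minus Slc2a3 shows overlapping groups.

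An OCT4 site within 1 kb was marked by the authors at 6 of the 14 peaks (42.9%), against 17.6% of all tested peaks. Of these 6, 5 fell (the intron peak of Apobec1 was not called), where 85.2% of all tested peaks with the mark did. Of the 8 unmarked peaks 7 fell, where 64.6% of all unmarked tested peaks did. The median change of the marked window peaks was -0.68 on the log2 scale, beside -0.71 over all marked tested peaks, and that of the unmarked window peaks was -0.70, beside -0.52 over all unmarked ones. Within each library, the marked window peaks exceeded the unmarked ones by 0.53 ± 0.160 on the log2 scale in uninduced cells and by 0.65 ± 0.0910 after IAA (SD, n = 3). This change of 0.12 was within the spread between libraries (exact two-sided permutation test, p = 0.3). By position, all 5 peaks with a transcription start within 1 kb and 7 of the 9 distal peaks fell. Among the 5, the peak at -11.3 kb counts only through a start of the pseudogene Gm10420. Of all tested peaks, not divided by position, 68.2% fell. The within-library difference of distal minus promoter peaks was -0.45 ± 0.0315 on the log2 scale in uninduced and -0.38 ± 0.0515 in IAA libraries (exact permutation p = 0.2). With the median over the peaks in place of the mean, the change after IAA had the opposite sign in both contrasts, -0.0116 for the mark and -0.0544 for distal peaks.

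The neighborhood was then compared with its surroundings. Within each library the mean log2(RPKM + 0.1) of the 14 peaks was above the median of all tested peaks by 0.51 ± 0.0824 in uninduced cells and by 0.35 ± 0.0215 after IAA (SD, n = 3), with all IAA libraries below all uninduced ones (change -0.16, exact two-sided permutation test, p = 0.1). Of every 10000 reads in peaks, 10.9, 9.90 and 10.9 fell in the window in uninduced libraries and 9.06, 9.58 and 9.72 after IAA. Without the 2 Gdf3 peaks, left out after Gdf3 was seen to have the steepest mean fall of the 5 genes, so that a smaller change had to follow, the change relative to the median of all tested peaks was -0.10 (exact permutation p = 0.2). The 210 kb on each side hold 24 tested peaks, of which 17 fell (70.8%, near the 68.2% of all tested peaks), with a median change of -0.59. These flanks include the Slc2a3 peaks beyond the window, among them the 3 intron peaks with the OCT4 mark. They are thus not free of the 5 genes. The window exceeded these flanks by 0.39 ± 0.0351 in uninduced and 0.31 ± 0.0391 in IAA libraries, a change of -0.08 with separate groups (exact permutation p = 0.1), and without the Gdf3 peaks the change was -0.02 (p = 0.5 by the same exact test). It was -0.32 with the median over the peaks, -0.27 with flanks of narrower width and -0.18 without the Phc1 peaks described next.

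The steepest falls of the flanks were a pair of peaks at Phc1, a gene of the Polycomb repressive complex PRC1, named here after their values were seen. The one over a Phc1 exon (chr6:122340061-122340585, OCT4 mark) fell from 9.31, 7.48 and 7.89 RPKM to 3.19, 2.75 and 2.37 RPKM, and the one beside it (chr6:122342732-122343252, OCT4 mark) fell by 1.82 on the log2 scale. Nearest to the window on the Apobec1 side, a peak in an Mfap5 intron (chr6:122513084-122513466, no OCT4 mark) had 1.79, 1.99 and 1.89 RPKM against 1.53, 2.39 and 1.13 RPKM and was not called (log2 change -0.21, limma adjusted p = 0.382). On the Slc2a3 side, 9 of the 13 flank peaks fell, and on the Apobec1 side 8 of 11, shares of 69.2% and 72.7% that are near the 68.2% of all tested peaks.

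**Figure D4:**
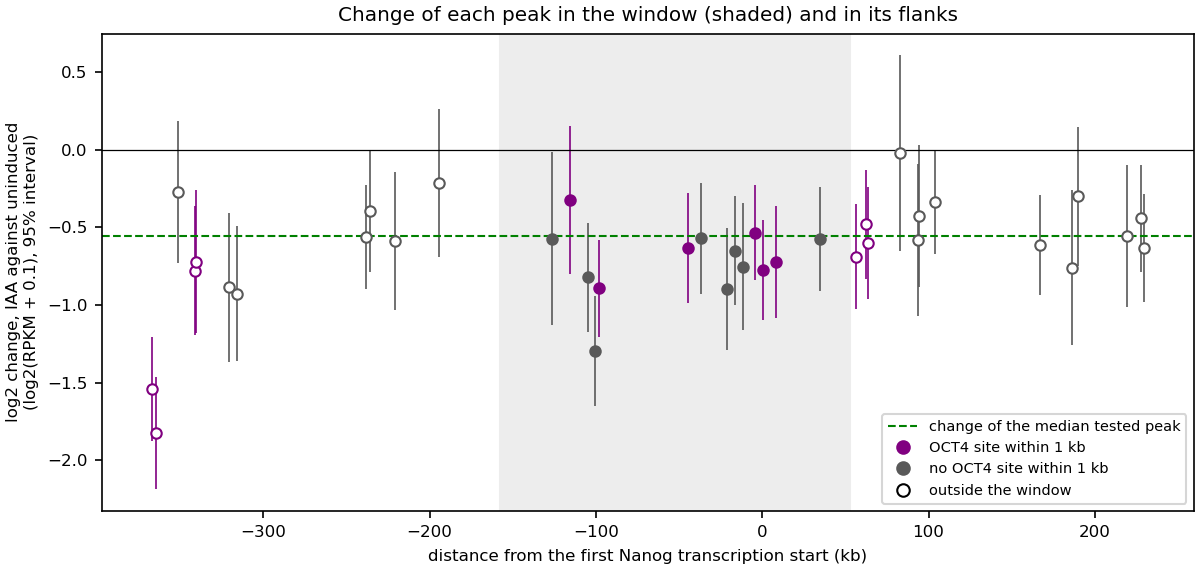
Log2 change of RPKM + 0.1 after IAA for each window peak (filled, shaded area) and flank peak (open) with its 95% interval from limma, against distance from the first Nanog start in kb, with peaks near OCT4 sites in purple and the change of the median tested peak, -0.55, dashed. Most window peaks lie near the dashed line, the Gdf3 exon peak at -1.29 lies below it, and the 2 Phc1 peaks at the far left lie lowest.

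Genes that share a function with the members were read from the tested peaks within 10 kb of each. Of the naive pluripotency network besides Nanog, all 13 genes had peaks, and 48 of 52 peaks fell (92.3%, against 68.2% of all tested peaks), with a median of -0.90 beside -0.55 over all tested peaks. Mean RPKM fell most at Nr0b1, an orphan nuclear receptor gene read from 1 peak without the OCT4 mark (by 1.94 on the log2 scale, from 2.21 ± 0.185 to 0.603 ± 0.226 RPKM). It fell least at Pou5f1, the gene of OCT4 itself, where 3 of 5 peaks were called lower (by 0.40, from 9.78 ± 0.167 to 7.47 ± 0.938 RPKM). Reads from the Oct4 transgenes of these cells could align to Pou5f1 and cannot be told apart here. At Sox2, encoding the partner of OCT4, mean RPKM fell by 1.14, from 6.12 ± 0.298 to 2.80 ± 0.403 RPKM. Nanog itself, read in the same way from 3 peaks, changed by -0.62, between Pou5f1 and Sox2. In each of these genes the groups did not overlap (exact permutation p = 0.1).

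Of the Dppa family, whose members Dppa2, Dppa4 and Dppa5a are named with Dppa3 only for their expression in pluripotent cells, all 9 peaks fell, where 68.2% of all tested peaks did, with a median of -0.79 beside -0.55 over all tested peaks. Of the Nodal and GDF signaling genes related to Gdf3, 7 of 9 had peaks and 19 of 22 peaks fell (86.4%, against the same 68.2%), with a median of -0.58, near the -0.55 of all tested peaks. The range ran from -1.05 at Tdgf1, the co-receptor Cripto, to -0.54 at Smad7, an inhibitor of the pathway. Gdf3 itself changed by -1.01 over its 2 peaks. Of the glucose transporters related to Slc2a3, 5 of 9 had peaks and 10 of 14 peaks fell (71.4%, near the 68.2% of all tested peaks, with a median of -0.53 beside -0.55), between -0.59 at Slc2a8 and -0.31 at Slc2a12, whose groups overlapped. Of the peaks at Apobec2, Apobec3 and Apobec4, which are related to Apobec1, 7 of 9 fell (77.8% beside 68.2%, with a median of -0.56 beside -0.55), between -0.62 at Apobec2 and -0.51 at Apobec3.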

How the data were processed

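H3K27ac ChIP-seq of 6 libraries was used, grouped by the labels. Reads were aligned by the authors to GRCm38 (mm10) with Bowtie2 2.3.4.3, and the authors then removed duplicates, called peaks with MACS2 on the pooled uninduced IPs, and deposited RPKM per peak made with DiffBind. For MACS2 and DiffBind the version is not given in the sources used here. Regions acetylated only after IAA would therefore have no peak. Each deposited pooled column is the mean of 3 libraries, although the methods speak of pooled reads. The number of per-sample columns not used was 0. The OCT4 mark is the authors' own, from published ChIP-seq. The catalog number of the antibody differs between the labels and the paper.

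Peaks of at least 0.5 RPKM in either pooled column were tested (26457) with limma 3.58.1 in R 4.3.3 (trend and robust, Benjamini-Hochberg, threshold 0.05, tested on simulated data) on log2(RPKM + 0.1), a scale on which low peaks appear to change less. The simulated data had changes in both directions and no shift common to a library. They therefore do not cover calls made under such a shift. RPKM is no count, so no count model was used. Length-weighted means on log2(RPKM) and within-library differences were compared by a two-sided exact permutation test with 20 labelings. Library sizes were recovered from the steps of the RPKM values (100% whole reads within 0.01 of a read). Intervals and counting errors cover these libraries and reads only.

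Transcription starts came from GENCODE vM21, and motifs and repeated 32-base words (numba 0.67.0) from the GRCm38 sequence. Of the 5 genes, 2 had a RefSeq promoter entry (Nanog and Apobec1); Dppa3, Gdf3 and Slc2a3 had none. The window, genes, lists, tests and naming rule were chosen with earlier results of these data known. The rule gives values for peaks over or nearest to each gene's start, the highest peak of each gene, peaks with the OCT4 mark, the largest and smallest change, and uncalled peaks. Of each list it gives counts, the largest and smallest change, Pou5f1 and Sox2. A gene of these lists is not reported here. Alternatives were the pseudocount, threshold, centering, quantile normalization, limma settings, replicate block, weighting, flank width, gene assignment and leaving out each library.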

Additional observations from a re-analysis of the deposited data

How the results depend on the processing

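Of the 14 window peaks, 12 were lower with either other pseudocount (0.5 or 1), no threshold, a threshold of 1, plain limma or the replicate block. Same-numbered libraries did not deviate together (correlations -0.0143, -0.0910 and -0.0614), so the numbers were not taken as pairing the samples. With the block, 18898 of all tested peaks were lower, beside 18048 without it. Over all tested peaks, 520 were lower and 144 higher with centering, 447 and 119 with quantile normalization, 10378 and 10 without uninduced replicate 1, and 54 were higher with no threshold, beside 16. Centering on the median peak left 1 lower peak and quantile normalization 1. Centering turned the Apobec1 peak at -115.62 kb to 0.23 and the Nanog peak at -4.58 kb to 0.0194. Quantile normalization gave 0.00438 and 0.228 at the Apobec1 peaks at -126.26 and -115.62 kb, 0.000440 and 0.00186 at the Nanog peaks at -37.07 and -4.58 kb, and 0.00777 at Slc2a3. Both remove a shift common to all peaks by construction.

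Dividing by the median peak gave changes of -0.16 for the window, -0.10 for Apobec1, -0.43 for Gdf3, -0.0692 for Dppa3, -0.0658 for Nanog and -0.00746 for Slc2a3. Unweighted means gave 0.52 for Apobec1 minus Gdf3 and turned Apobec1 minus Dppa3 (0.0581), Apobec1 minus Nanog (0.13), Apobec1 minus Slc2a3 (0.00158) and Dppa3 minus Nanog (0.0693). Medians over peaks gave -0.0116 for marked minus unmarked, -0.0544 for distal minus promoter and -0.32 for window minus flanks. The causes were not tested. Window minus flanks was -0.27 with the narrower flanks. Of the alternatives chosen after seeing the data, leaving out the Gdf3 peaks gave -0.10 against the median peak and -0.0207 against the flanks, and leaving out the Phc1 peaks gave -0.18. Assignment by gene body changed no value.

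Leaving out each library in turn gave 12 to 13 lower and 0 higher window peaks, and changes of -0.79 to -0.66 for the window, -0.78 to -0.61 for Apobec1, -1.07 to -0.93 for Gdf3, -0.79 to -0.51 for Dppa3, -0.70 to -0.58 for Nanog and -0.66 to -0.45 for Slc2a3. For the pairs, Apobec1 minus Dppa3 ranged from -0.15 to 0.0480, Apobec1 minus Gdf3 from 0.27 to 0.42, Apobec1 minus Nanog from -0.11 to 0.0855, Apobec1 minus Slc2a3 from -0.21 to 0.0468, Dppa3 minus Nanog from -0.12 to 0.0737, Dppa3 minus Slc2a3 from -0.13 to -0.0012, Gdf3 minus Dppa3 from -0.47 to -0.28, Gdf3 minus Nanog from -0.42 to -0.30, Gdf3 minus Slc2a3 from -0.53 to -0.34 and Nanog minus Slc2a3 from -0.13 to -0.0051. Window minus flanks ranged from -0.10 to -0.06, window minus median peak from -0.20 to -0.12, marked minus unmarked from 0.05 to 0.21, distal minus promoter from 0.06 to 0.10, and window reads per 10000 from -1.42 to -0.90. At 3 libraries a group no permutation p can fall under 0.1.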
